A study of Mus musculus with 9 samples.

Results

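The genes described here encode the enzymes of glycolysis, the pentose phosphate pathway and the tricarboxylic acid (TCA) cycle, with 2 lactate dehydrogenases and a few enzymes that set the flow between the routes. They were taken by name from a list of 35 genes as the array probe sets annotated to that gene symbol alone, with the brightest probe set kept where a gene had several. Of the 35 genes, 32 were measured in this way, out of 19938 genes on the arrays. Gpi1, Eno1 and G6pdx had no probe set of their own symbol and were not analysed here.

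RNA came from 3 sorted mouse populations with 3 arrays each, and all mice carried the CX3CR1 gfp+/- genotype, in which a green fluorescent protein (GFP) reporter takes the place of 1 copy of the fractalkine receptor gene. T cell zone macrophages (TZM) were lymph node cells sorted as CD169-, CD11b+, MertK+ and GFP-high, and microglia were brain cells sorted as CD45+, CD11b+ and GFP-high. CD8a+ dendritic cells (DC) were sorted as CD8a+ and CD64- with high CD11c and high MHCII, and the labels name both lymph node and spleen as their source. Age, sex and pooling of the mice are not given in the sources used here, nor is any treatment, and the titles number the arrays of each population as biological replicates. Values are log2 levels after robust multi-array averaging (RMA), so a difference of 1 is a 2-fold change in signal, and levels of different genes are not set against each other.

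Glycolysis splits glucose into pyruvate in the cytosol, and its committed steps are the hexokinases, which trap glucose as glucose 6-phosphate, and phosphofructokinase. Lactate dehydrogenase turns pyruvate into lactate and back, pyruvate dehydrogenase, inside the mitochondrion, turns it into the acetyl-CoA that feeds the TCA cycle, and the pentose phosphate pathway draws on glucose 6-phosphate to make NADPH and ribose. Macrophages and dendritic cells are known to shift between these routes when they are activated, and proliferating cells draw on them for building blocks. RNA levels do not measure flux, and in sorted bulk samples fewer expressing cells and less RNA per cell cannot be told apart.

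Marker genes of macrophages, type 1 DC and microglia followed the labels, and no list was particular to TZM. The mean log2 level of 6 microglia genes was 7.23 to 7.32 in TZM, 11.21 to 11.32 in microglia and 5.07 to 5.20 in DC. By the calling rule given below, all 6 were lower in TZM than in microglia, and 4 were higher in TZM than in DC. The mean log2 level of 8 macrophage genes was 10.38 to 10.74 in TZM, 11.23 to 11.34 in microglia and 5.21 to 5.52 in DC, and that of 7 type 1 DC genes was 5.26 to 5.42, 4.70 to 4.80 and 9.43 to 9.56 in the same populations. TZM replicate 2 lay farthest from its group, with a standard deviation of 0.287 over the bright genes, against 0.131 to 0.216 in the 8 other arrays. It was also the highest array for the mean level of 5 neutrophil genes (6.21, against 4.86 and 5.50 in the other TZM arrays). S100a8 (5.89, 9.28 and 7.32 in TZM) and S100a9 (6.21, 9.39 and 7.89) carried this, while Ly6g, Mpo and Elane were at 3.13 to 4.84. The mean of 5 salivary gland genes was highest there too (7.41, against 6.61 and 5.96). It was 3.36 to 3.38 in microglia and 3.40 to 3.60 in DC. Bpifa2, Smr3a and Amy1 carried that mean, and Prol1 and Smr2 were at 3.01 to 3.08 in TZM. In microglia, 5 choroid plexus genes averaged 6.64, 4.60 and 6.39, against 4.20 to 4.57 in TZM and 4.13 to 4.37 in DC. Ttr (12.15, 5.48 and 11.83) and Kcnj13 (6.75, 5.07 and 6.57) carried this, and the others were at 3.40 to 5.45 in microglia. Of the 32 members, 18 had their lowest TZM value in replicate 2, and the part of those transcripts in the results was not tested. Without this array, Pgk1 between TZM and microglia was the only call of a member in either TZM comparison that changed. At changes of less than 1 log2, the adjusted p of further members then fell under 0.05. These were Tpi1, Mdh2 and Hk1 (whose probe set is described below) against DC, and Tpi1, Pgam1, Pdha1, Mdh2 and Pgd against microglia. For Idh3a against DC it rose to 0.066 (limma). The mean level of 5 genes of cycling cells was 5.34 to 5.62 in TZM, 4.63 to 4.78 in microglia and 7.20 to 7.52 in DC, and all 5 were lower in both macrophage populations than in DC.

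The promoters of 3 members are shown, chosen by the calling rule given below, which includes a fold minimum. Ldhb and Pfkp were the members called between every pair of populations, and Idh1 was called higher in TZM than in both others. Each window runs from 250 bases before to 50 after a RefSeq transcription start (GRCm38.p6) and is written 5′ to 3′ on the strand of the gene, which is the minus strand for all 3. The windows are chr6:142507908-142508207 for Ldhb, chr13:6648722-6649021 for Pfkp, and chr1:65186430-65186729 and chr1:65179093-65179392 for both starts of Idh1. Capitals mark ACGTG and GCGTG, the core of the hypoxia response element, in either orientation.
Ldhb: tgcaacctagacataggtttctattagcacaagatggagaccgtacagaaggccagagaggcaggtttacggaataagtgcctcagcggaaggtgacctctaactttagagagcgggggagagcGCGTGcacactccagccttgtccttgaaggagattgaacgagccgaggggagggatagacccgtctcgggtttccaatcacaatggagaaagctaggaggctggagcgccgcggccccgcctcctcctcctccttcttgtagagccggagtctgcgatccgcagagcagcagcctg
Pfkp: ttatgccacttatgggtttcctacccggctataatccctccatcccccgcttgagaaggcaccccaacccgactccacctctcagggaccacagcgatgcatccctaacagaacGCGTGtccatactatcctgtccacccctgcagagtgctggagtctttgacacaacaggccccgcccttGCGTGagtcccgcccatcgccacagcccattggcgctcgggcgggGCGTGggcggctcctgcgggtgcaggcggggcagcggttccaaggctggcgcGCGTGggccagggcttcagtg
Idh1, upstream start: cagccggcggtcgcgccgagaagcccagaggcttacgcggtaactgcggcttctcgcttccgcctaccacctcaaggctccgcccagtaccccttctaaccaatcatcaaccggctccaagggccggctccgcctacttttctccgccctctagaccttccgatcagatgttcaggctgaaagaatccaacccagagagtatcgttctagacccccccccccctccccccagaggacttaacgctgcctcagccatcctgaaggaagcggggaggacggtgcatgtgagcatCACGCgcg
Idh1, downstream start: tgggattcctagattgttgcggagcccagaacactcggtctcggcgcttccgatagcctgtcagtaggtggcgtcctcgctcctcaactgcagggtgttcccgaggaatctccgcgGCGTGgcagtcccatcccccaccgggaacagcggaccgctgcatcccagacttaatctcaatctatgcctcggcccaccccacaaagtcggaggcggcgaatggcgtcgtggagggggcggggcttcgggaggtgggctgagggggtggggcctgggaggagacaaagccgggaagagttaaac
Pfkp held 4 copies of GCGTG, at -136, -68, -23 and 29 bases from its start, and Ldhb held 1 at -126. The windows of Idh1 held 1 each, and ACGTG was in none of the 4. Over 31 members with a promoter in the table, 37 of 48 windows (77.1%) held either motif on either strand, against 43.8% of 32851 windows of the same length. The E-box CACGTG, which contains ACGTG on both strands, was in 6 of the 48 (12.5%) and in 7.15% of all windows. Base composition was not matched in these shares, and windows of 1 gene can overlap.

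DC had the highest levels of Pfkp, Taldo1 and Aldoc, microglia those of Ldhb, Hk2 and Pdk1, and TZM those of Idh1. A gene was called different at a Benjamini-Hochberg adjusted p under 0.05 over all 19938 genes and a log2 fold change of at least 1, in 1 limma fit of all 9 arrays. By this rule 15 of the 32 members were called in at least 1 of the 3 comparisons, and 17 in none. The comparisons share arrays in pairs, so their counts are not independent of each other.

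Between TZM and DC 5 members (15.6%) were called, 2 higher and 3 lower in TZM, against 8.74% of all genes (4.71% higher, 4.03% lower) and 19.7% of genes with a level of at least 6 in at least 3 arrays, called bright genes here. Between TZM and microglia it was 8 members (25%), 5 higher and 3 lower in TZM, against 7.65% of all genes (4.25% higher, 3.4% lower) and 17.3% of bright genes. Microglia and DC differed in 12 members (37.5%), 4 higher and 8 lower in microglia, against 11.2% of all genes (5.15% higher, 6.01% lower) and 25.6% of bright genes. Of these 8 lower members, Hk1 cannot be attributed to its gene, as described below. The share for TZM against DC thus lay between both backgrounds, and the other shares were above both. Of the 32 members, 26 were bright genes, and Pfkm, Pfkfb4, Fbp1, Aldoc, Eno2 and Idh3a were not. At an adjusted p under 0.05 with no minimum fold, the members differed in 46.9% between TZM and DC, 40.6% between TZM and microglia and 62.5% between microglia and DC, against 40.6%, 39.8% and 50.2% of bright genes and 20.2%, 19.4% and 25.1% of all genes.

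The median log2 fold change over the 32 members was -0.07 for TZM against DC, 0.22 for TZM against microglia and -0.52 for microglia against DC, against medians of 0.02, 0.01 and 0.01 over all genes. The mean of 20 members (62.5%) was lowest in microglia, as it was for 37.5% of the bright genes, and the mean of 15 members (46.9%) was highest in DC, against 39.1% of the bright genes. The mean was highest in microglia for 9 members (28.1%, against 33.6%) and in TZM for 8 (25%, against 27.3%). These are orders of means, many of them between levels that did not differ beyond their spread.

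**Figure D1:**
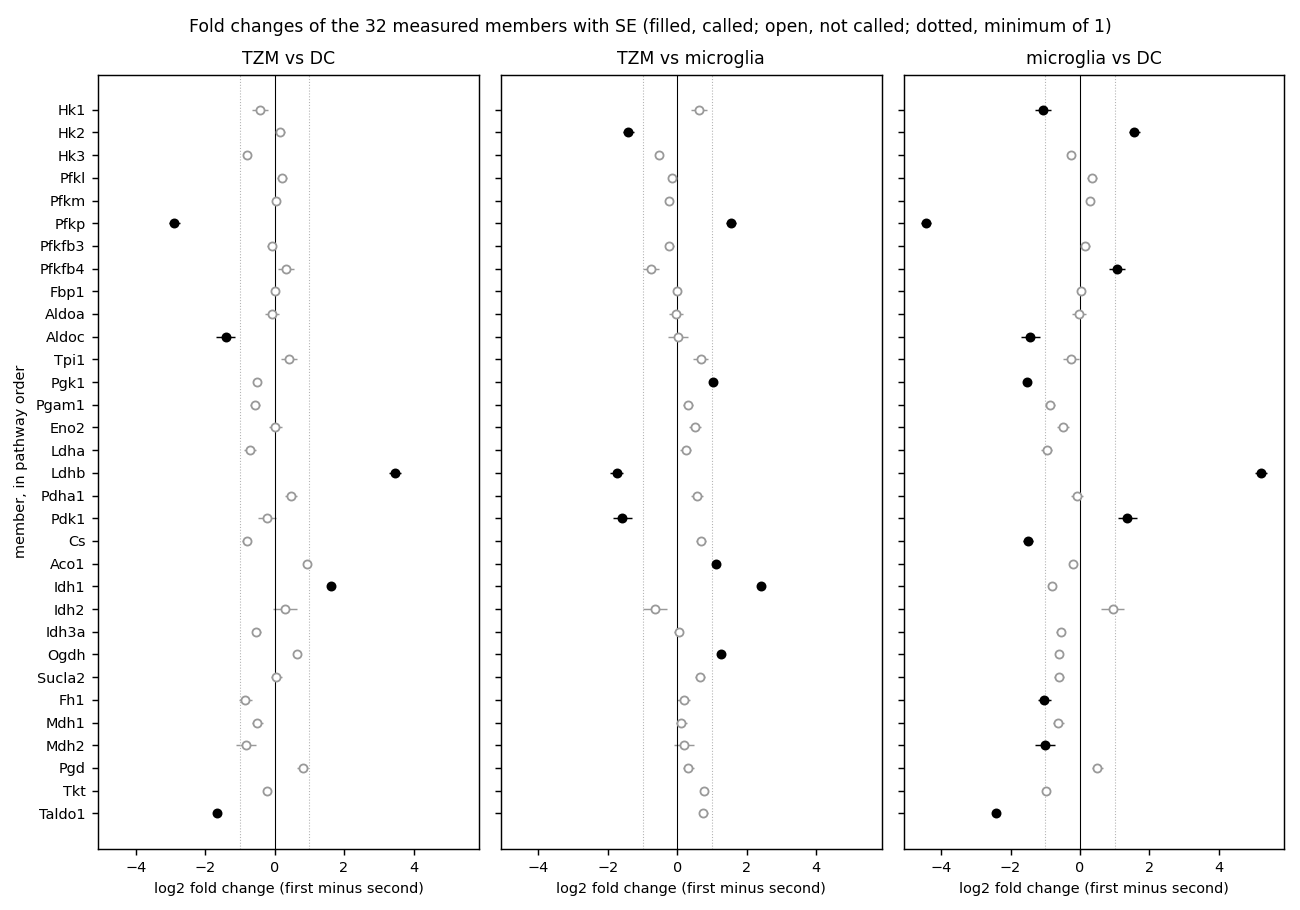
Log2 fold changes of the 32 measured members (points, with SE as bars) in TZM vs DC, TZM vs microglia and microglia vs DC, in pathway order from top to bottom. Filled points were called. Ldhb and Pfkp are filled in all 3 panels, with the widest span between microglia and DC (5.21 and -4.43).

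At the entry of glycolysis, Hk2, the inducible hexokinase bound to mitochondria, was higher in microglia. Its level was 6.17, 6.43 and 6.62 in the TZM arrays, 7.95, 7.73 and 7.79 in microglia, and 6.35, 5.98 and 6.41 in DC. All 3 microglia arrays lay above all others, while TZM and DC overlapped. The log2 fold change was -1.41 for TZM against microglia (SE 0.15, limma adjusted p = 0.00019), 1.57 for microglia against DC (SE 0.15, limma adjusted p = 6.3e-05) and 0.16 for TZM against DC (limma adjusted p = 0.55).

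Hk3, a hexokinase of myeloid cells, was at 6.14, 6.06 and 6.29 in TZM, 6.77, 6.65 and 6.68 in microglia, and 7.08, 6.95 and 6.84 in DC. TZM lay below both other populations without overlap, by less than the fold minimum, with log2 fold changes of -0.79 against DC (SE 0.09, limma adjusted p = 0.00023) and -0.53 against microglia (SE 0.09, limma adjusted p = 0.0025).

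The probe set that brightness chose for Hk1, the housekeeping hexokinase, is annotated by 1 accession only, which 16 probe sets named for Rpl17, a ribosomal protein gene, list as well. It stood at 10.58, 11.26 and 10.24 in TZM, 10.26, 10 and 9.93 in microglia, and 11.14, 11.09 and 11.14 in DC, and was called lower in microglia than in DC (log2 fold change -1.06, limma adjusted p = 0.0083). The probe set that lists the RefSeq transcripts of Hk1 stood at 4.75 to 5.15 in TZM, 5.11 to 5.40 in microglia and 5.14 to 5.42 in DC. With it the same difference was -0.02 (SE 0.14, limma adjusted p = 0.96), so the call rests on the brighter probe set. That call also ended without microglia replicate 3 (-0.99, limma adjusted p = 0.034). Without Hk1, 7 members were lower in microglia than in DC.

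At the committed step of glycolysis, only 1 of the 3 phosphofructokinase isozymes was called. Pfkp, the platelet type, was at 5.64, 5.64 and 5.50 in TZM, 4.34, 3.69 and 4.12 in microglia, and 8.49, 8.45 and 8.52 in DC. No array of one population overlapped with another, with DC highest and microglia lowest and near the low end of the scale. TZM were 7.43-fold lower than DC (log2 fold change -2.89, SE 0.15, limma adjusted p = 2.1e-06) and 2.91-fold higher than microglia (1.54, SE 0.15, limma adjusted p = 0.00012). Microglia were 21.6-fold lower than DC (-4.43, SE 0.15, limma adjusted p = 1.1e-07).

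Pfkl, the liver type, was at 6.04, 5.85 and 6.27 in TZM, 6.12, 6.35 and 6.10 in microglia, and 5.92, 6.0 and 5.61 in DC, and the arrays of TZM overlapped with both others. Its log2 fold changes in the 3 comparisons were between -0.14 and 0.35 (limma adjusted p = 0.12 to 0.61). Pfkm, the muscle type, averaged 4.40 ± 0.18 in TZM, 4.64 ± 0.07 in microglia and 4.36 ± 0.12 in DC (SD, n = 3 each), and was not called either.

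Pfkfb3 and Pfkfb4 make and break fructose 2,6-bisphosphate, the activator of phosphofructokinase. Pfkfb3, the form with the strongest kinase activity, was at 9.88, 9.81 and 9.74 in TZM, 10.35, 9.80 and 9.97 in microglia, and 9.88, 9.93 and 9.85 in DC, and the arrays overlapped. Pfkfb4 was at 5.04 in each TZM array, at 5.45, 6.41 and 5.51 in microglia, and at 4.72, 4.84 and 4.57 in DC. Microglia lay above the others and were called against DC (log2 fold change 1.08, SE 0.23, limma adjusted p = 0.0077), a call that ended without microglia replicate 2, the high array (0.77, limma adjusted p = 0.00049). Fbp1, the gluconeogenic enzyme that opposes phosphofructokinase, was at 3.27 to 3.50 in TZM, 3.34 to 3.48 in microglia and 3.34 to 3.42 in DC, at the low end of the scale in all arrays.

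Of the aldolases, which cleave fructose 1,6-bisphosphate, Aldoc was higher in DC. This isozyme, best known from brain astrocytes, was at 4.68, 4.33 and 4.52 in TZM, 4.53, 4.74 and 4.19 in microglia, and 6.45, 5.28 and 6.02 in DC. The DC arrays varied but lay above all others, and TZM and microglia overlapped at a low level. The log2 fold change was -1.41 for TZM against DC (SE 0.28, limma adjusted p = 0.0068) and -1.43 for microglia against DC (SE 0.28, limma adjusted p = 0.0049). Across 6 astrocyte genes the mean level was 4.78 to 4.87 in TZM, 4.49 to 4.51 in microglia and 3.96 to 4.06 in DC. Slc1a3 accounts for most of this order (7.80 to 8.35, 7.22 to 7.45 and 4.37 to 4.72), while Gfap, Aqp4, Aldh1l1 and Gja1 were at 3.51 to 4.35 in all arrays. The part of astrocyte RNA in the level of Aldoc was not tested. Aldoa averaged 9.64 ± 0.47 in TZM, 9.67 ± 0.08 in microglia and 9.71 ± 0.04 in DC (SD, n = 3 each), with its low TZM value of 9.10 in replicate 2.

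In the lower steps of glycolysis, Pgk1, the first enzyme that yields ATP, was lowest in microglia. Its level was 9.39, 9.76 and 9.41 in TZM, 8.35, 8.54 and 8.61 in microglia, and 10, 10.05 and 10.02 in DC, with no overlap between any 2 populations. Microglia were 2.87-fold lower than DC (log2 fold change -1.52, SE 0.11, limma adjusted p = 1.4e-05). TZM were higher than microglia by 1.02 (SE 0.11, limma adjusted p = 0.00026). This dropped under the fold minimum without TZM replicate 2 (0.90), without microglia replicate 1 (0.95), with quantile normalization (0.93) and with median centring. A probe set of Pgk1 with levels of its own gave 0.98. Against DC, TZM stood at -0.50 (limma adjusted p = 0.012), short of the fold minimum.

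Pgam1, phosphoglycerate mutase, had the same order of means as Pgk1, with 8.05, 7.71 and 8.20 in TZM, 7.75, 7.73 and 7.58 in microglia, and 8.37, 8.76 and 8.50 in DC. DC lay above both others without overlap, with log2 fold changes of -0.56 for TZM (limma adjusted p = 0.024) and -0.86 for microglia (limma adjusted p = 0.0021), short of the fold minimum. Tpi1, triosephosphate isomerase, averaged 8.14 ± 0.50 in TZM, 7.47 ± 0.16 in microglia and 7.73 ± 0.09 in DC (SD, n = 3 each). Eno2, the neuronal enolase, averaged 4.57 ± 0.24, 4.06 ± 0.16 and 4.55 ± 0.34 in the same order, and neither gene was called. The low TZM value of Tpi1 was in replicate 2. Without that array TZM stood at 0.70 against DC (limma adjusted p = 0.0023) and 0.96 against microglia (limma adjusted p = 0.0005) for Tpi1, short of the fold minimum. The mean level of 6 neuron genes was 4.03 to 4.09 in TZM, 4.14 to 4.21 in microglia and 3.98 to 4.05 in DC.

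**Figure D2:**
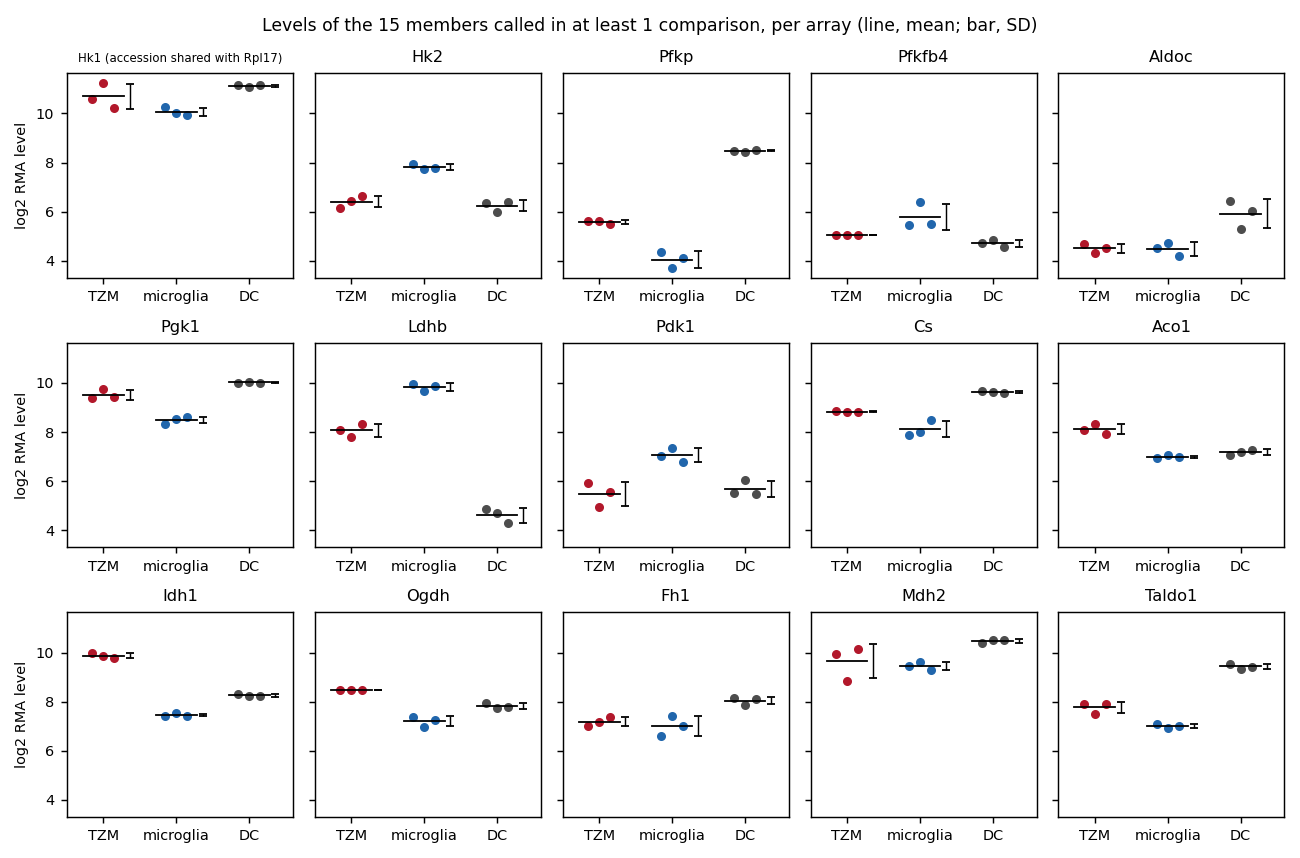
Log2 RMA levels of the 15 members called in at least 1 comparison, by population (3 arrays each, points; line, mean; bar, SD). Ldhb and Pfkp separate all 3 populations in opposite orders, and Idh1 stands highest in TZM at 9.77 to 9.98. The Hk1 panel shows the probe set whose accession is shared with Rpl17.

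The widest difference among the members lay in lactate dehydrogenase. Ldhb, the heart-type subunit, was at 8.10, 7.81 and 8.32 in TZM, 9.96, 9.67 and 9.87 in microglia, and 4.85, 4.72 and 4.28 in DC. Microglia were highest, TZM next and DC near the low end of the scale, with no overlap. TZM were 11.0-fold higher than DC (log2 fold change 3.46, SE 0.18, limma adjusted p = 2.2e-06) and 3.37-fold lower than microglia (-1.75, SE 0.18, limma adjusted p = 0.00016). Microglia were 37.1-fold higher than DC (5.21, SE 0.18, limma adjusted p = 1.3e-07). A further probe set of Ldhb gave 3.16, -2.00 and 5.16 for the same 3 differences.

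Ldha, the muscle-type subunit, had its highest levels in DC. It was at 8.21, 8.74 and 8.56 in TZM, 8.15, 8.33 and 8.30 in microglia, and 9.49, 9.0 and 9.17 in DC. DC lay above all others, and TZM and microglia overlapped. The log2 fold change was -0.71 for TZM against DC (SE 0.16, limma adjusted p = 0.013) and -0.96 for microglia against DC (SE 0.16, limma adjusted p = 0.0021), both short of the fold minimum. The difference between microglia and DC passed that minimum without DC replicate 2 (-1.07).

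How far isozymes shifted against each other was taken as the difference of their log2 levels within each array, where only the shift between populations can be read. Ldha minus Ldhb was 0.11, 0.93 and 0.23 in TZM, -1.81, -1.33 and -1.57 in microglia, and 4.64, 4.28 and 4.89 in DC. The balance leaned to Ldha in DC by 4.17 more than in TZM and by 6.17 more than in microglia, and in TZM by 1.99 more than in microglia. Each of the 3 had an exact two-sided permutation p of 0.1, the smallest that 3 against 3 arrays allow, and 0.15 after Benjamini-Hochberg adjustment over 18 comparisons of 6 isozyme pairs, so none can reach 0.05.

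Pfkp minus Pfkl was -0.41, -0.21 and -0.78 in TZM, -1.78, -2.66 and -1.98 in microglia, and 2.57, 2.44 and 2.91 in DC, again with no overlap. The populations differed by -3.10 (TZM minus DC), 1.68 (TZM minus microglia) and -4.78 (microglia minus DC), each at the smallest exact p of 0.1. Aldoc minus Aldoa differed by -1.34 between TZM and DC and by -1.39 between microglia and DC (exact permutation p = 0.1 each), and by 0.05 between TZM and microglia (exact permutation p = 0.8). Pfkm minus Pfkl differed by at most 0.17 in size (exact permutation p = 0.5 to 0.8). The pairs with Hk1 rest on the probe set described above and are not read.

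**Figure D3:**
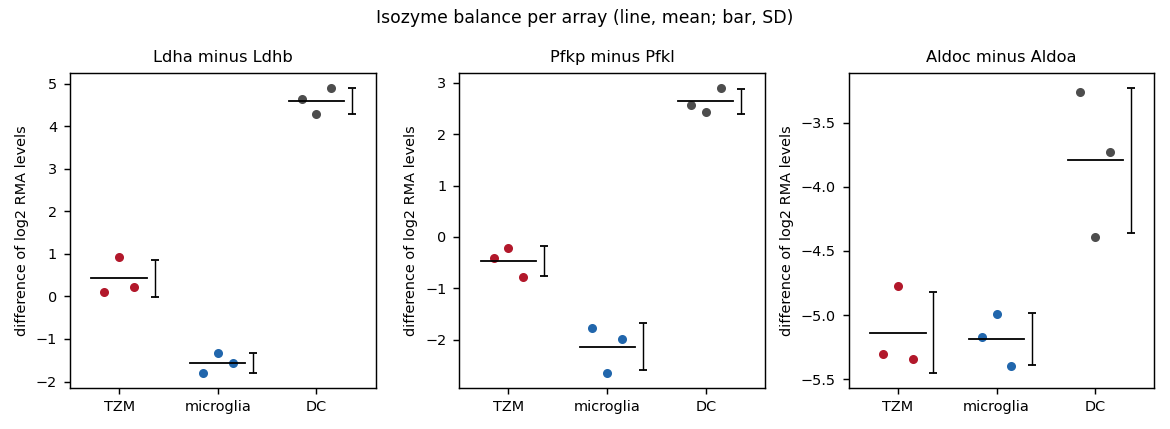
Difference of the log2 levels of 2 isozymes in each array, by population (points; line, mean; bar, SD), for Ldha minus Ldhb, Pfkp minus Pfkl and Aldoc minus Aldoa, each on its own axis. DC stand apart in all 3 panels, and TZM lie between microglia and DC in the first and second.

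At the step from pyruvate to the TCA cycle, Pdk1, a kinase that switches pyruvate dehydrogenase off, was higher in microglia. Its level was 5.93, 4.94 and 5.55 in TZM, 7.04, 7.35 and 6.77 in microglia, and 5.53, 6.06 and 5.48 in DC. All microglia arrays lay above the rest, and TZM and DC overlapped. The log2 fold change was -1.58 for TZM against microglia (SE 0.27, limma adjusted p = 0.0035) and 1.36 for microglia against DC (SE 0.27, limma adjusted p = 0.0056). Pdha1, the catalytic subunit that Pdk1 acts on, averaged 7.15 ± 0.23 in TZM, 6.59 ± 0.18 in microglia and 6.68 ± 0.31 in DC (SD, n = 3 each) and was not called.

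In the TCA cycle within the mitochondrion, 3 of 7 members were called lower in microglia than in DC, against 6.01% of all genes. In either direction, 25.6% of bright genes were called there. Between TZM and microglia 1 of the 7 was called, higher in TZM, against 4.25% of all genes. None was called between TZM and DC. There 4 of the 7 had an adjusted p under 0.05, 1 higher and 3 lower in TZM, against 40.6% of bright genes in either direction. Cs, citrate synthase, which starts the cycle, was at 8.84, 8.83 and 8.80 in TZM, 7.89, 8.01 and 8.50 in microglia, and 9.66, 9.65 and 9.58 in DC. The 3 populations did not overlap, with DC highest and microglia lowest. Microglia were 2.82-fold lower than DC (log2 fold change -1.50, SE 0.14, limma adjusted p = 6.8e-05), and TZM differed from both by less than the fold minimum (-0.81 against DC, limma adjusted p = 0.0035, and 0.69 against microglia, limma adjusted p = 0.0086).

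Ogdh, the E1 subunit of the 2-oxoglutarate dehydrogenase complex, was highest in TZM. It stood at 8.47, 8.46 and 8.47 in TZM, 7.39, 6.98 and 7.27 in microglia, and 7.95, 7.73 and 7.78 in DC. TZM lay above both others without overlap, by 1.25 against microglia (SE 0.11, limma adjusted p = 6.8e-05) and by 0.64 against DC (SE 0.11, limma adjusted p = 0.0029), the second short of the fold minimum.

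Fh1, fumarase, was at 7.0, 7.19 and 7.38 in TZM, 6.62, 7.40 and 7.0 in microglia, and 8.14, 7.87 and 8.11 in DC. Mdh2, mitochondrial malate dehydrogenase, was at 9.92, 8.85 and 10.16 in TZM, 9.44, 9.60 and 9.29 in microglia, and 10.37, 10.50 and 10.51 in DC. Both were highest in DC without overlap, and TZM and microglia overlapped. The call of Fh1 in microglia against DC (log2 fold change -1.03, SE 0.19, limma adjusted p = 0.0038) ended with quantile normalization (-0.98) and without microglia replicate 1 (-0.84), DC replicate 1 (-0.98) or DC replicate 3 (-1.0). That of Mdh2 (-1.01, SE 0.29, limma adjusted p = 0.035) ended without any 1 of the 6 arrays compared (-0.94 to -1.09, limma adjusted p = 0.062 to 0.11). In all it ended under 9 of 14 alternatives. It held with only microglia and DC in the fit (-1.01, SE 0.09, limma adjusted p = 0.00047), where the spread of the TZM arrays does not enter. Between TZM and DC, Mdh2 stood at -0.82 (limma adjusted p = 0.095) and its low TZM array was replicate 2. Without that array it stood at -0.42 (limma adjusted p = 0.036), short of the fold minimum, and without TZM replicate 3 at -1.08 (limma adjusted p = 0.036), where it was called.

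The remaining members of the cycle were not called. Idh3a, a subunit of the NAD-linked isocitrate dehydrogenase, was at 4.95 to 5.21 in TZM, 4.89 to 5.22 in microglia and 5.35 to 5.78 in DC. Sucla2, a subunit of succinyl-CoA synthetase, was at 7.39 to 7.94 in TZM, 6.76 to 7.11 in microglia and 7.53 to 7.74 in DC. Each differed in 2 comparisons at an adjusted p under 0.05 but under the fold minimum, with DC above the others for Idh3a and microglia below the others for Sucla2.

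Idh2, the mitochondrial NADP-linked isocitrate dehydrogenase, had the widest spread of all members in TZM. It stood at 8.30, 7.13 and 8.46 in TZM, 8.79, 8.19 and 8.86 in microglia, and 7.86, 7.45 and 7.69 in DC. Its low TZM value was in replicate 2, and without that array the log2 fold change was 0.71 against DC (limma adjusted p = 0.053), compared with 0.29 (limma adjusted p = 0.66) for all arrays. Without it Idh2 stood at -0.23 against microglia (limma adjusted p = 0.57), compared with -0.65 for all arrays. Microglia lay above DC without overlap, by 0.94 (SE 0.34, limma adjusted p = 0.083) for all arrays, which was not called.

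Of the 3 cytosolic counterparts of the cycle enzymes, 2 were called higher in TZM than in microglia, against 4.25% of all genes. Of these, Idh1 was also called higher in TZM than in DC, as were 4.71% of all genes. Idh1, which makes NADPH in the cytosol, was at 9.98, 9.87 and 9.77 in TZM, 7.42, 7.52 and 7.43 in microglia, and 8.33, 8.21 and 8.24 in DC. TZM lay above both others without overlap. They were 3.07-fold higher than DC (log2 fold change 1.62, SE 0.07, limma adjusted p = 9.3e-07) and 5.34-fold higher than microglia (2.42, SE 0.07, limma adjusted p = 1.2e-07).

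Aco1, cytosolic aconitase, which doubles as an iron-sensing RNA-binding protein, was at 8.09, 8.34 and 7.93 in TZM, 6.96, 7.05 and 6.99 in microglia, and 7.05, 7.21 and 7.29 in DC. TZM again lay above both others without overlap, by 1.12 against microglia (SE 0.11, limma adjusted p = 0.00013). Against DC the difference was 0.94 (SE 0.11, limma adjusted p = 0.00033), under the fold minimum, which it passed without TZM replicate 3 (1.03). Mdh1, cytosolic malate dehydrogenase, averaged 8.85 ± 0.30 in TZM, 8.73 ± 0.23 in microglia and 9.35 ± 0.11 in DC (SD, n = 3 each) and was not called.

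In the pentose phosphate pathway, Taldo1, transaldolase of the non-oxidative branch, was highest in DC. It was at 7.91, 7.49 and 7.89 in TZM, 7.07, 6.94 and 7.02 in microglia, and 9.55, 9.34 and 9.41 in DC, with no overlap. TZM were 3.18-fold lower than DC (log2 fold change -1.67, SE 0.12, limma adjusted p = 1.5e-05), and microglia 5.37-fold lower (-2.42, SE 0.12, limma adjusted p = 1.1e-06). TZM exceeded microglia by 0.75 (limma adjusted p = 0.002), short of the fold minimum.

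Tkt, transketolase of the same branch, was at 7.97, 7.80 and 8.06 in TZM, 7.06, 7.29 and 7.14 in microglia, and 8.35, 8.10 and 8.02 in DC. Microglia lay below both others, at -0.99 against DC (SE 0.11, limma adjusted p = 0.00019), just short of the fold minimum. It passed that minimum with median centring (-1.02) and without microglia replicate 2 (-1.06), DC replicate 2 (-1.02) or DC replicate 3 (-1.06). Pgd, which makes NADPH in the oxidative branch, had its lowest levels in DC, with 8.91, 8.34 and 8.89 in TZM, 8.49, 8.39 and 8.34 in microglia, and 7.71, 8.02 and 7.99 in DC. TZM exceeded DC by 0.81 (SE 0.16, limma adjusted p = 0.0067), short of the fold minimum.

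Pfkp, Aldoc, Pgk1, Pgam1, Ldha, Cs, Idh3a, Fh1 and Taldo1 were the members with an adjusted p under 0.05 and a higher level in DC in both comparisons with DC. These are 28.1% of the members, against 14.6% of bright genes and 7.32% of all genes by the same rule. For 3 of them the adjusted p did not stay under 0.05 when single arrays were left out. It was 0.051 to 0.08 for Pgam1 in TZM against DC without TZM replicate 1, DC replicate 2 or DC replicate 3, and 0.05 to 0.055 for Fh1 in TZM against DC without TZM replicate 1, DC replicate 1 or DC replicate 3. For Idh3a it was 0.066 to 0.088 in TZM against DC without TZM replicate 2, TZM replicate 3, DC replicate 1 or DC replicate 2, and 0.052 to 0.056 in microglia against DC without microglia replicate 2, microglia replicate 3 or DC replicate 1. The 5 measured genes of cycling cells were also higher in DC, by the values given above, and their part in these results was not tested.

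Of 84 other genes of these pathways, their transport steps and their regulators, 77 were measured, and the called ones were carriers, single enzymes, kinases of pyruvate dehydrogenase and 2 transcription factors. Between TZM and DC 4 were higher and 1 lower in TZM (6.49% called), between TZM and microglia 4 were higher and 2 lower (7.79%), and between microglia and DC 6 were higher and 6 lower in microglia (15.6%). These shares stand against the same backgrounds of 8.74%, 7.65% and 11.2% of all genes.

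Carriers across membranes held the widest of these differences. Slc2a5, the fructose transporter GLUT5, which is known as a marker of microglia, was at 3.92, 4.01 and 4.01 in TZM, 9.62, 9.63 and 9.22 in microglia, and 4.04, 4.39 and 4.07 in DC. Microglia stood 45.5-fold above TZM (log2 fold change -5.51 for TZM against microglia, SE 0.13, limma adjusted p = 4.5e-08) and 40.0-fold above DC (5.32, SE 0.13, limma adjusted p = 2.1e-08).

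Slc16a7, the monocarboxylate transporter MCT2, which carries lactate and pyruvate, was at 7.30, 7.59 and 6.83 in TZM, 7.01, 6.71 and 7.16 in microglia, and 3.78, 3.57 and 3.92 in DC. TZM and microglia overlapped, and both lay above DC, as they did for Ldhb. TZM were 11.2-fold higher than DC (log2 fold change 3.48, SE 0.20, limma adjusted p = 4.4e-06), and microglia 9.21-fold higher (3.20, SE 0.20, limma adjusted p = 5.1e-06).

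Slc2a1, the glucose transporter GLUT1, was at 7.87, 7.81 and 7.94 in TZM, 7.99, 8.27 and 8.37 in microglia, and 6.64, 6.70 and 6.37 in DC. Both macrophage populations were higher than DC, TZM by 1.3 (SE 0.12, limma adjusted p = 8.1e-05) and microglia by 1.64 (SE 0.12, limma adjusted p = 1.4e-05). Slc25a10, the mitochondrial dicarboxylate carrier, was higher in TZM than in microglia by 1.34 (limma adjusted p = 4.6e-05). Slc2a6, a further sugar transporter, was lower in microglia than in DC by a log2 fold change of -1.10 (limma adjusted p = 0.018), a call that ended without any 1 microglia array (-1.11 to -1.09, limma adjusted p = 0.051 to 0.053) or without DC replicate 2 (-0.81, limma adjusted p = 0.038).

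Among the enzymes, Eno3, the muscle enolase, was higher in DC, with a log2 fold change of -1.71 for TZM (limma adjusted p = 8.9e-05) and of -1.57 for microglia (limma adjusted p = 0.00011). Pkm, the pyruvate kinase of most tissues, averaged 8.96 ± 0.36 in TZM, 8.70 ± 0.30 in microglia and 8.89 ± 0.14 in DC (SD, n = 3 each) and was not called. Pgls, which acts between the dehydrogenases of the oxidative pentose phosphate branch, was lower in microglia than in both others, with log2 fold changes of 1.14 for TZM against microglia (limma adjusted p = 1.4e-05) and -1.60 for microglia against DC (limma adjusted p = 1e-06).

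Me2, the mitochondrial malic enzyme, was also lowest in microglia, with log2 fold changes of 1.59 for TZM against microglia (limma adjusted p = 0.00014) and -1.54 for microglia against DC (limma adjusted p = 0.0001). Suclg1, the partner of Sucla2 in succinyl-CoA synthetase, was lower in microglia than in DC (-1.40, limma adjusted p = 3.8e-05).

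The kinases of pyruvate dehydrogenase differed by member. Pdk2 was higher in TZM than in DC by 1.63 (limma adjusted p = 0.00032) and in microglia than in DC by 1.01 (limma adjusted p = 0.0039), and Pdk3 was lower in microglia than in DC (-1.06, limma adjusted p = 0.0008). The call of Pdk2 between microglia and DC ended under 5 of 14 alternatives, with median centring (0.98), quantile normalization (0.99) and without microglia replicate 1 (0.99), microglia replicate 3 (0.85) or DC replicate 3 (0.88). That of Pdk3 ended without microglia replicate 2 (-0.98) or DC replicate 1 (-0.90). Pdhx, which anchors a subunit of the complex, was higher in TZM than in microglia by 1.04 (limma adjusted p = 0.011), a call that ended without TZM replicate 1 (0.80).

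Of 12 regulators, Myc, a driver of glycolytic and growth genes, was called higher in both macrophage populations than in DC. It was at 9.68, 10.61 and 9.55 in TZM, 9.91, 9.65 and 10.28 in microglia, and 7.49, 7.24 and 7.04 in DC. The log2 fold change was 2.69 for TZM (SE 0.28, limma adjusted p = 0.0002) and 2.68 for microglia (SE 0.28, limma adjusted p = 0.00014). The high TZM value was in replicate 2. Mlxipl, the carbohydrate-sensing factor ChREBP, was higher in microglia than in DC by 1.21 (limma adjusted p = 1.6e-05), and stood at -1.16 in TZM against microglia (limma adjusted p = 3.7e-05). Hif1a, the hypoxia-inducible subunit whose element the promoter motifs spell, averaged 9.01 ± 0.26 in TZM, 8.54 ± 0.09 in microglia and 8.28 ± 0.13 in DC (SD, n = 3 each). TZM exceeded DC by 0.73 (limma adjusted p = 0.004), short of the fold minimum.

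**Figure D4:**
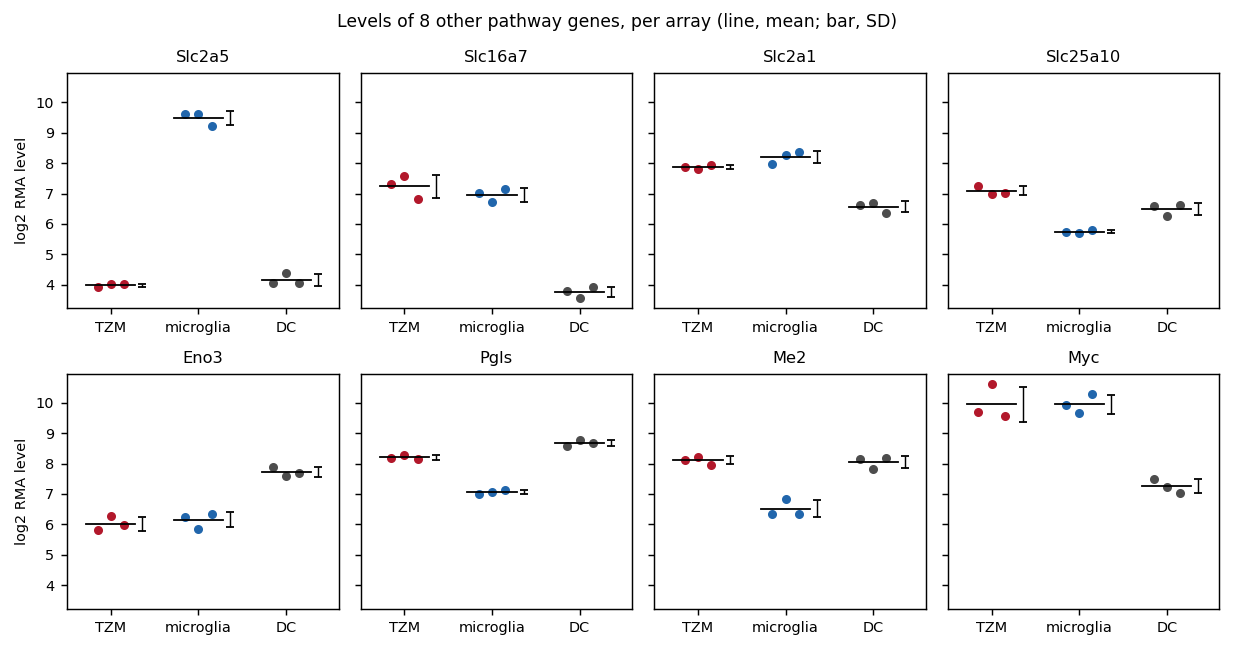
Log2 RMA levels of 8 other genes of these pathways by population (3 arrays each, points; line, mean; bar, SD). Slc2a5 stands at 9.22 to 9.63 in microglia and at or below 4.39 elsewhere, and Slc16a7 and Myc are lower in DC than in both macrophage populations.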

How the data were processed

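Each of the 9 arrays measured the RNA of 1 sorted population, from tissue digested with collagenase I and DNase I per the labels' protocols. The log2 levels used here were deposited by the authors, who made them with Affymetrix Expression Console 1.3.1 and RMA, per the submitters' processing notes. The table held 35556 probe sets with values from 2.04 to 13.6, and array medians over genes were 4.9 to 5.02. GEO's platform annotation assigned a single symbol to 21789 of them, more than 1 to 1621, and left 12146 unnamed. Of the 21789, 21698 were matched by Entrez identifier to RefSeq (GRCm38.p6), and the brightest probe set stood for a gene, which applied to 999 genes with more than 1.

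All 3 populations were fitted together by lmFit and eBayes of limma 3.58.1 (R 4.3.3), without covariates, with the thresholds given above. On simulated data for 19938 genes the fit recovered 98% of changes of 1.5 log2 between TZM and DC, with 2 false calls. The simulated noise was normal with the variances of the fit and had no outlying array. These values therefore check the procedure and do not measure the error of the calls reported here. Smaller changes, near the fold minimum where several calls lie, were not simulated. The number of arrays, 3 a population, limits the precision. The table has no detection call, so low levels are not separated from background, and folds against them may be understated. The p-values measure the spread between the deposited arrays, whose mice are not described further.

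The members and gene lists were chosen with earlier results of these data known. Members that were called, and those of the entry, exit and branch points, are given array by array, the rest by ranges or means. Other pathway genes are named where called. Pkm and Hif1a were added after their values were seen, and Acod1 is also given though it was not called. Alternatives were no minimum fold, the level filter, median centring, quantile normalization, averaging the probe sets of a gene, testing every probe set, only the compared populations, trended and robust eBayes, the replicate number as a block, and leaving out each array. The use of the other Hk1 probe set was added after seeing the data.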

Additional observations from a re-analysis of the deposited data

How the results depend on the processing

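Of 114 recomputed counts of called members 110 stayed within 1.5 times the reported count. The other 4 came from dropping the minimum fold, with 5 members higher and 10 lower in TZM against DC, 9 higher in TZM against microglia, and 16 lower in microglia against DC. Over all genes that setting called 1960 higher and 2065 lower, 2001 and 1872, and 2400 and 2606 in the 3 comparisons, against 939 and 804, 848 and 678, and 1026 and 1198 with the minimum. With all 35556 probe sets tested it was 1123 higher and 1274 lower, 1081 and 1252, and 1534 and 1906, so lower exceeded higher in both TZM comparisons, the opposite of the reported counts. Leaving out 1 array gave 2 to 3 members higher and 3 to 4 lower in TZM against DC, 4 to 5 higher and 3 lower in TZM against microglia, and 3 to 4 higher and 6 to 9 lower in microglia against DC. Recomputed fold changes of members with an adjusted p under 0.05 numbered 668. Of these, 641 kept their direction and side of the threshold, 21 fell under it and 6 passed it, and none changed sign. The level filter, every probe set, only the compared populations, trended and robust eBayes and the replicate block left each fold change as it was. They could not change a sign, and the fold changes were chosen by their adjusted p in these data. For other pathway genes only called fold changes were recomputed, so none could pass the threshold. Of these 320, 306 kept their direction and side and 14 fell under it. Of the 48 member fold changes with an adjusted p of 0.05 or more, 18 changed sign under at least 1 alternative.

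Balances that changed sign were among those with overlapping arrays, apart from Hk3 minus Hk1 in microglia against DC, which was -0.24 with the RefSeq probe set of Hk1, against 0.80. Pfkm minus Pfkl was 0.01 in TZM against DC without DC replicate 3 (leave-one-out range -0.30 to 0.01), and in microglia against DC 0.04 without microglia replicate 2 and 0.12 without DC replicate 3 (range -0.19 to 0.12). Aldoc minus Aldoa in TZM against microglia was -0.13 without TZM replicate 2 and -0.06 without microglia replicate 3 (range -0.13 to 0.15). The cause of these shifts was not tested.

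Over 9 pairs of arrays with the same replicate number, deviations correlated at -0.16 to 0.13, and over pairs with different numbers at -0.18 to 0.19. These values show no pairing by number but cannot exclude one. With the replicate number as a block the counts of members were the same (2 higher and 3 lower, 5 and 3, and 4 higher) except for 7 lower in microglia against DC, where Mdh2 stood at -1.01 (limma adjusted p = 0.061). Pgam1 in TZM against DC then had a limma adjusted p of 0.063, and 0.066 with only the compared populations in the fit. Mdh2 there also missed the threshold with every probe set tested (limma adjusted p = 0.053) and with quantile normalization (-0.91), and Hk1 with the mean of its probe sets (-0.54).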

Other observations

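Probe sets of a gene could be set against each other for 4 members. The 3 probe sets of Pgk1 gave log2 fold changes of 0.98 to 1.02 for TZM against microglia and -1.52 to -1.51 for microglia against DC. Only 1 of the 3 is a separate measurement beside the one used, as the other had equal levels in every array. That separate probe set gave the 0.98, short of the fold minimum. The 3 of Pgam1 gave -1.13 to -0.86 for microglia against DC, so 1 side of the fold minimum depends on the probe set. Here too all but 1 had equal levels in every array, and that 1 gave the -1.13. Both probe sets of Ldhb gave the same direction in every comparison, and those of Hk1 differed most, with -1.06 to -0.02 for microglia against DC.

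The spread within a population was widest in TZM. The median SD over the 32 members was 0.22 in TZM, 0.15 in microglia and 0.12 in DC, and the largest SD was 0.73 for Idh2 in TZM, 0.53 for Pfkfb4 in microglia and 0.59 for Aldoc in DC. Without TZM replicate 2, Pgk1 in TZM against microglia was the one member whose call changed. The adjusted p of further members crossed 0.05 short of the fold minimum, as given above.

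Acod1, which makes itaconate from a TCA cycle intermediate in activated macrophages, was not called. It was at 5.41, 5.39 and 6.08 in TZM, 4.96, 4.66 and 4.96 in microglia, and 4.74, 4.96 and 4.90 in DC, with TZM above both others.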
